A study of Mus musculus with 11 samples.

Results

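The factors that start protein synthesis and carry it forward in the cytoplasm were examined as a group of 55 genes in mouse hearts. They were chosen by name, as protein-coding genes whose symbol begins with Eif1 to Eif6 or with Eef1 or Eef2 and whose mean was at least 1 CPM over 11 mice (counts scaled to a common library size with TMM factors). The kinases Eif2ak1 to Eif2ak4 and Eef2k, the methyltransferases named Eef1akmt and Eef2kmt, and Eif4h, which lies in the deleted interval of the mutant mice, were left out by the rule. The deposited table held 22608 genes, and 54 of the 55 factors were among the 11319 genes abundant enough to be tested. The exception was Eif5a2, at a mean of 1.95 CPM. Eif4e1b and Eif4ebp3 were under the rule's minimum, at means of 0.210 and 0.346 CPM.

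The hearts came from male littermates aged 8 to 16 weeks on a C57BL/6J background. Complete deletion (CD) mice lack, on a single chromosome 5, the interval that matches the region deleted in Williams-Beuren syndrome, and wild-type (WT) mice carry both copies. Mice of each genotype received vehicle (VEH) or 8 mg/kg of JZL184, an inhibitor of the enzyme that breaks down the endocannabinoid 2-AG, for 10 days. There were 2 mice in WT VEH and 3 mice in each of WT JZL184, CD VEH and CD JZL184, and the treatment field of the labels calls the VEH mice untreated. The label gives heart ventricle, the mice are named here by the letter of their column, and the whole tissue was sequenced, so that fewer cells of a type and less RNA per cell cannot be told apart.

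Translation begins when the initiator tRNA, carried by eIF2, is loaded on the small ribosomal subunit together with eIF1, eIF1A, eIF3 and eIF5, and the eIF4 complex brings this assembly to the capped end of an mRNA. After the start codon is found, eIF5B joins the large subunit, and the elongation factors eEF1 and eEF2 deliver each tRNA and move the ribosome along. Heart muscle makes the elongation factor eEF1A from a pair of genes, of which Eef1a2 is typical of adult muscle and neurons and Eef1a1 of most other cells.

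Eif4h, a helicase cofactor encoded at chr5:134619721-134639490 (GRCm38), checked the genotype labels. It lay between 97.4 and 105 CPM in the 5 WT mice and between 51.2 and 55.0 CPM in the 6 CD mice, so every mouse had the level of its labelled genotype. No gene in the list checks the treatment labels, and measures of these mice other than RNA counts were not used here. The sign of the comparisons rests on those labels. Estimated counts summed to between 69660329 and 92251550 per mouse, and 3 counts correspond to 0.0325 to 0.0431 CPM, which covers counting error only. Mitochondrial genome transcripts made up 39.4% to 41.2% of the libraries of WT VEH, 45% to 46.6% in WT JZL184, 43.5% to 44.7% in CD VEH and 36.4% to 40.1% in CD JZL184. The share was thus higher in every WT JZL184 and CD VEH mouse than in any other, and its part in the results was not tested beyond leaving those genes out. The markers of heart muscle, which atria share (Myh6, Tnnt2, Tnni3, Actn2, Ryr2 and Pln) were all tested, whereas lymphocyte, adipocyte and skeletal muscle markers had no gene abundant enough to be tested. CD VEH mouse A stood apart in its erythroid markers, which summed to 13260 CPM against 979.5 to 3731 CPM in the others.

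In CPM the summed mRNA of the factors differed little between groups, while single factors went in both directions. Their summed level was 6949 and 7058 CPM in WT VEH, 6968 to 7433 CPM in WT JZL184, 7043 to 7163 CPM in CD VEH and 6928 to 7071 CPM in CD JZL184. CD VEH lay within the range of WT JZL184, and the ranges of CD JZL184 and WT VEH overlapped. As a share of the counts outside the mitochondrial genome the 2 WT VEH mice had 1.17% and 1.18%, WT JZL184 mice 1.21% to 1.36%, CD VEH mice 1.23% to 1.25% and CD JZL184 mice 1.19% to 1.21%, so that on this scale the WT VEH mice were below all others. On vehicle, CD mice had 7 of 54 factors higher and 6 lower than WT mice, which is 24.1% of the factors beside 30.4% of all tested genes, 15% higher and 15.4% lower (edgeR's quasi-likelihood test, adjusted p under 0.05 over all tested genes). JZL184 against vehicle in CD mice gave 5 higher and 10 lower, 27.8% of the factors beside 33.9% of all tested genes, 16.8% higher and 17% lower. JZL184 against vehicle in WT mice gave 4 higher and 9 lower, 24.1% beside 29.4% of all genes, 15.4% higher and 14% lower. Between the genotypes under JZL184, 7 factors were higher and 8 lower in CD mice, 27.8% beside 38.3% of all genes, 18.2% higher and 20.1% lower. Each of these shares was below that of all genes. Without WT VEH mouse C the factors called against WT VEH dropped to 0 higher and 1 lower in CD VEH and to the same numbers in WT JZL184, while the share of all genes called dropped to 3.41% and 4.93%. Without CD VEH mouse A the JZL184 calls in CD mice dropped to 2 higher and 4 lower, beside 18.5% of all genes. Values of the compared groups did not overlap for 34, 31, 28 and 21 of the 54 factors in these 4 comparisons, beside 64%, 54.6%, 54.7% and 47.9% of all tested genes. The median log2 fold-changes of the factors were 0.022, -0.027, 0.027 and 0.016 in these comparisons, beside medians over all genes of 0.009, -0.002, -0.003 and 0.000. Throughout, a positive value means higher in CD than in WT mice, or higher with JZL184 than with vehicle. The comparisons share mice (CD VEH enters the genotype comparison on vehicle and the JZL184 comparison in CD mice, for example), so their values are set side by side and are not independent.

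**Figure D1:**
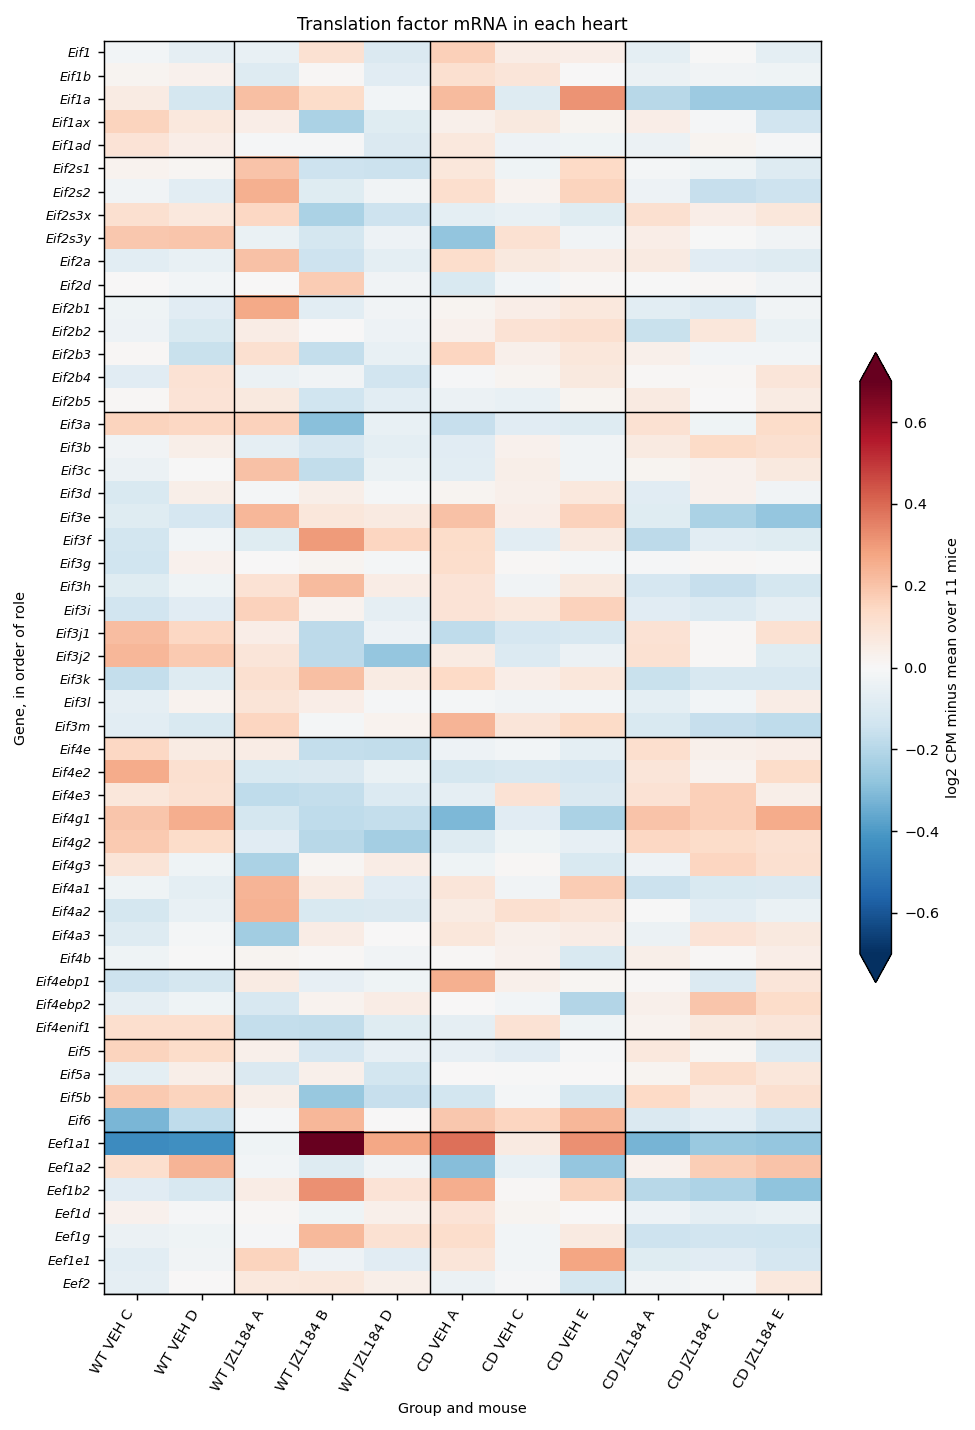
Level of each of the 54 tested translation factors (rows, ordered by role) in each of the 11 mice (columns), as log2 CPM minus the factor's mean over all mice. Eef1a1 has the widest range, from 566 CPM in WT VEH mouse C to 1258 CPM in WT JZL184 mouse B, whereas most factors differ little between mice.

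Among the elongation factors, both forms of eEF1A changed, in opposite directions, and eEF2 did not pass the test. Eef1a1, the general form of the tRNA carrier eEF1A (chr9:78478449-78489151), measured 566 and 571 CPM in WT VEH, 753, 1258 and 925 in WT JZL184, 1005, 803 and 960.3 in CD VEH, and 612, 641 and 637 in CD JZL184. All 3 CD VEH and all 3 WT JZL184 mice were above every WT VEH and CD JZL184 mouse, and WT JZL184 mouse B was the highest. The log2 fold-change was 0.70 (SE 0.17, adjusted p = 0.0125) between CD and WT mice on vehicle and 0.78 (SE 0.17, adjusted p = 0.00838) for JZL184 in WT mice. It was -0.55 (SE 0.15, adjusted p = 0.0171) for JZL184 in CD mice and -0.64 (SE 0.15, adjusted p = 0.00743) in CD JZL184 against WT JZL184. Eef1a1 is known for many processed pseudogenes, so its count is uncertain to the extent that reads were assigned among copies. Leaving out either WT VEH mouse ended its calls against WT VEH, with adjusted p of up to 0.0897, and its JZL184 call in CD mice was lost without CD VEH mouse A or E or CD JZL184 mouse A or E (adjusted p up to 0.0687).

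Eef1a2, the muscle and neuronal form (chr2:181147653-181157014), measured 682 and 742 CPM in WT VEH, 622, 592 and 620.4 in WT JZL184, 513, 607 and 521 in CD VEH, and 644, 709 and 724 in CD JZL184. Here all WT VEH and CD JZL184 mice lay above every WT JZL184 and CD VEH mouse, with the lowest value in CD VEH mouse A and the highest in WT VEH mouse D. It fell between CD and WT mice on vehicle, with a log2 fold-change of -0.38 (SE 0.091, adjusted p = 0.0115), and rose with JZL184 in CD mice, at 0.34 (SE 0.082, adjusted p = 0.0102). In WT mice the JZL184 value was -0.22 (SE 0.091, adjusted p = 0.0882), which did not pass the threshold although the groups did not overlap. With an offset for transcript length, Eef1a2 was called lower there too. As a ratio of counts, Eef1a2 to Eef1a1 was 1.21 and 1.30 in WT VEH, 0.826, 0.470 and 0.671 in WT JZL184, 0.511, 0.755 and 0.543 in CD VEH, and 1.05, 1.11 and 1.14 in CD JZL184. The ratio was above 1 in every WT VEH and CD JZL184 mouse and below 1 in every other mouse. Without WT VEH mouse C or D the genotype call of Eef1a2 was lost, with adjusted p up to 0.0967.

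The nucleotide exchange factor eEF1B reloads eEF1A with GTP. Its catalytic subunit Eef1b2 measured 118 and 115 CPM in WT VEH, 128, 155 and 132 in WT JZL184, 148, 124 and 138 in CD VEH, and 108, 107 and 102 in CD JZL184. The CD JZL184 mice were below all others. Eef1b2 fell with JZL184 in CD mice, with a log2 fold-change of -0.37 (SE 0.082, adjusted p = 0.00678), and was lower in CD JZL184 than in WT JZL184, at -0.39 (SE 0.082, adjusted p = 0.00405). The scaffold subunit Eef1g measured 206 and 208 CPM in WT VEH, 210.5, 248 and 228 in WT JZL184, 231, 209.5 and 221 in CD VEH, and 192, 193 and 193 in CD JZL184. The CD JZL184 mice again lay below the rest, at -0.20 (SE 0.068, adjusted p = 0.0443) against CD VEH, a call kept in 7 of 15 alternatives and lost on leaving out CD VEH mouse A or E or any CD JZL184 mouse. Eef1d, the other exchange subunit, measured 86.97 and 84.7 CPM in WT VEH, 85.8, 83.5 and 87.4 in WT JZL184, 91.2, 86.4 and 85.5 in CD VEH, and 83.1, 81.6 and 82.3 in CD JZL184. Its groups lay close together, and it passed no threshold. Eef1e1, of the multisynthetase complex, lay between 6.16 and 8.08 CPM and was not called.

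Eef2, the translocase that moves the ribosome by a codon, measured 1000 and 1044 CPM in WT VEH, 1099, 1102 and 1071 in WT JZL184, 1014, 1037 and 959 in CD VEH, and 1024, 1032 and 1097 in CD JZL184. WT VEH, CD VEH and CD JZL184 overlapped, and Eef2 was not called in any comparison. Between CD and WT mice on vehicle its log2 fold-change was -0.026 (SE 0.073, adjusted p = 0.804), with a 95% interval of -0.19 to 0.13. Scaled per kilobase of annotated principal transcript, the most abundant members were Eif4g2 at 909.2, Eef1a1 at 442.5, Eef2 at 337.8, Eef1a2 at 304.3 and Eif1 at 289.6 CPM per kilobase. The place of Eif4g2 rests on an annotated principal transcript of 742 bases. With its longest transcript of 7995 bases its level was 84.4 CPM per kilobase.

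**Figure D2:**
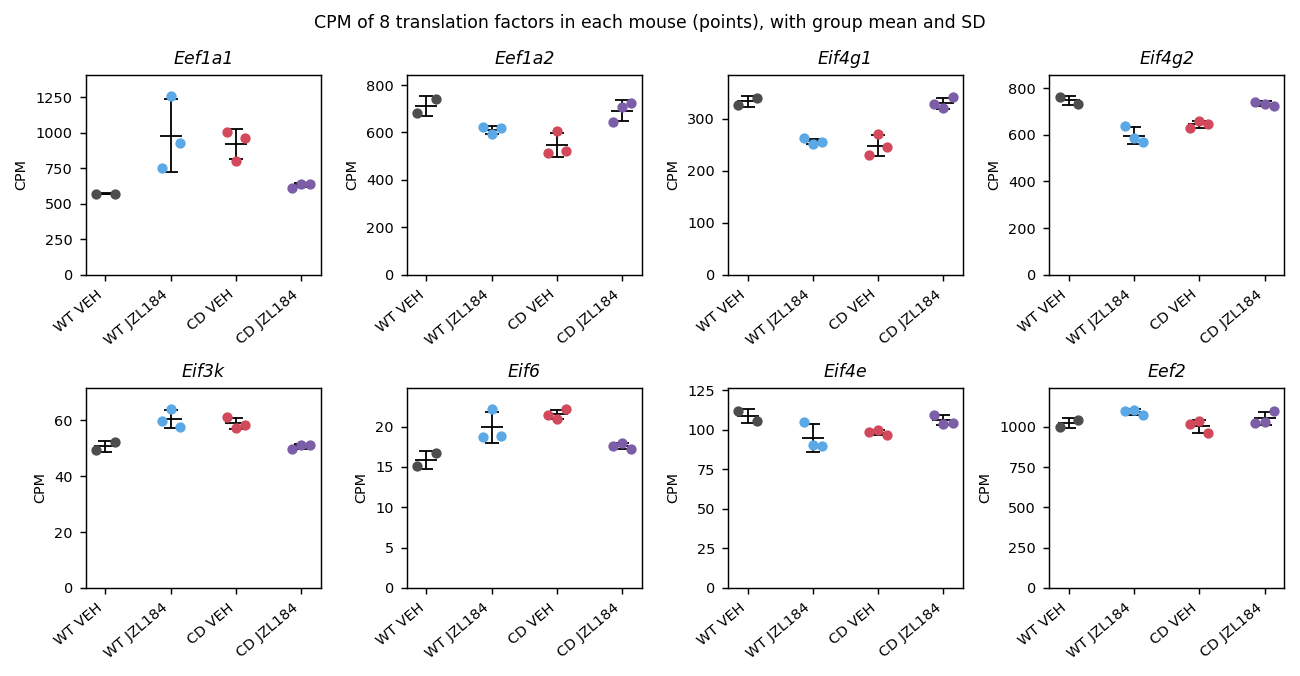
CPM of 8 factors in each mouse (points, colored by group), with the group mean (bar) and SD (whiskers) and a vertical axis that starts at 0. Eef1a1, Eif3k and Eif6 were called higher, and Eif4g1 and Eif4g2 lower, in CD VEH and in WT JZL184 against WT VEH, whereas Eef1a2 was called lower in CD VEH but not in WT JZL184, and Eif4e and Eef2 were called in neither.

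Within the cap-binding complex, the scaffolds Eif4g1 and Eif4g2 differed between groups, and the cap-binding protein Eif4e and the helicases did not pass the test in a comparison of 2 groups. Eif4g1, the scaffold that joins the cap to the small subunit (chr16:20668313-20692884), measured 326 and 341 CPM in WT VEH, 262, 252 and 254 in WT JZL184, 229.6, 270.4 and 245 in CD VEH, and 328, 319.8 and 342 in CD JZL184. WT VEH and CD JZL184 mice lay at 319.8 CPM or more, and the other 6 mice at 270.4 CPM or less. Its log2 fold-change was -0.43 (SE 0.077, adjusted p = 0.00428) between CD and WT mice on vehicle, 0.41 (SE 0.069, adjusted p = 0.0027) for JZL184 in CD mice and -0.38 (SE 0.077, adjusted p = 0.00622) for JZL184 in WT mice. Between the genotypes under JZL184 it was 0.36 (SE 0.069, adjusted p = 0.00264). The calls held under every alternative tried for the genotype comparisons and for JZL184 in CD mice, except that between the genotypes under JZL184 with the column letter as a block (adjusted p = 0.0768), and the WT call was lost without WT VEH mouse D (adjusted p = 0.0554).

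Eif4g2, a scaffold that lacks the cap-binding protein's site and serves cap-independent initiation, measured 761 and 734 CPM in WT VEH, 636, 586 and 569 in WT JZL184, 632, 658 and 645 in CD VEH, and 743, 734 and 722 in CD JZL184. All WT VEH and CD JZL184 mice lay above every CD VEH and WT JZL184 mouse, with log2 fold-changes of -0.21 (SE 0.073, adjusted p = 0.0446) between CD and WT mice on vehicle, 0.18 (SE 0.065, adjusted p = 0.0467) for JZL184 in CD mice and -0.32 (SE 0.073, adjusted p = 0.00893) in WT mice. Of these calls, the genotype call was kept in 7 of 14 alternatives and that for JZL184 in CD mice in 5 of 15, and both were lost without CD VEH mouse A or E. With the length offset, computed from its annotated principal transcript of 742 bases, the values were instead -0.47 and 0.47. Eif4g3 lay between 35.5 and 46.0 CPM and was not called. The cap-binding protein itself, Eif4e, measured 112 and 105 CPM in WT VEH, 105, 90.2 and 89.7 in WT JZL184, 98.8, 99.7 and 96.5 in CD VEH, and 109.7, 104 and 104 in CD JZL184. CD VEH lay below WT VEH in every mouse, but at -0.14 (SE 0.074, adjusted p = 0.159) the difference did not pass the threshold, and its 95% interval was -0.31 to 0.019. Of the related cap-binding proteins, Eif4e2, which acts as a repressor, fell in CD VEH (-0.30 (SE 0.061, adjusted p = 0.00601)) and rose with JZL184 in CD mice (0.20 (SE 0.055, adjusted p = 0.0174)), and the fall was not called without WT VEH mouse C (adjusted p = 0.0791). Eif4e3 fell with JZL184 in WT mice (-0.24 (SE 0.070, adjusted p = 0.0253)).

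The helicase that unwinds the leader of the mRNA is eIF4A, with its cofactor eIF4B. Eif4a1 measured 129.8 and 126 CPM in WT VEH, 156, 138 and 126 in WT JZL184, 140.3, 130 and 149.8 in CD VEH, and 119, 123 and 124 in CD JZL184, and Eif4a2 measured 293 and 306 CPM in WT VEH, 377, 296 and 297 in WT JZL184, 332, 344 and 338 in CD VEH, and 318, 302 and 308 in CD JZL184. WT JZL184 mouse A was the highest for both, and neither was called in a comparison of groups. Eif4b measured 137 and 139.9 CPM in WT VEH, 142, 141 and 138 in WT JZL184, 141, 143 and 130.1 in CD VEH, and 144, 141 and 145 in CD JZL184. WT VEH and CD VEH overlapped, with a log2 fold-change of -0.006 and a 95% interval of -0.14 to 0.13, whereas every CD JZL184 mouse lay above both WT VEH mice. The repressor Eif4ebp1, which holds eIF4E away from eIF4G, measured 34.6 and 35.1 CPM in WT VEH, 39.9, 36.8 and 37.5 in WT JZL184, 45.4, 39.2 and 38.7 in CD VEH, and 38.4, 35.8 and 40.6 in CD JZL184. It was higher in CD VEH than in WT VEH, at 0.24 (SE 0.081, adjusted p = 0.0461), a call kept in 5 of 14 alternatives. Eif4ebp2, its relative, measured 22.3 and 22.8 CPM in WT VEH, 21.5, 23.7 and 24.1 in WT JZL184, 23.4, 23.03 and 20.2 in CD VEH, and 23.9, 26.7 and 25.4 in CD JZL184 and was not called. Eif4enif1, which carries eIF4E into the nucleus, fell with JZL184 in WT mice (-0.26 (SE 0.064, adjusted p = 0.0133)).

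The eIF3 complex, which organizes the small subunit, had 14 tested subunits and both directions among them. Between CD and WT mice on vehicle 4 were higher and 1 was lower (35.7% of the subunits beside 30.4% of all tested genes), and with JZL184 in CD mice 1 was higher and 5 were lower (42.9% beside 33.9%). With JZL184 in WT mice 28.6% of the subunits were called, beside 29.4% of all genes, and between the genotypes under JZL184 35.7% beside 38.3%. Eif3e measured 73.7 and 72.01 CPM in WT VEH, 91.9, 82.8 and 81.6 in WT JZL184, 90.2, 80.8 and 87.4 in CD VEH, and 73.8, 67.2 and 64.8 in CD JZL184. The WT VEH and CD JZL184 mice were the low ones, and the log2 fold-change was 0.24 (SE 0.079, adjusted p = 0.0378) between CD and WT mice on vehicle and -0.33 (SE 0.070, adjusted p = 0.00603) for JZL184 in CD mice. Eif3k measured 49.3 and 52.1 CPM in WT VEH, 59.8, 63.98 and 57.5 in WT JZL184, 61.1, 57.2 and 58.4 in CD VEH, and 49.8, 51.2 and 51.2 in CD JZL184. It was likewise higher in CD VEH, at 0.22 (SE 0.063, adjusted p = 0.0251), and lower after JZL184 in CD mice, at -0.22 (SE 0.056, adjusted p = 0.0141), and both changed sign when fold-changes were adjusted for transcript length. Eif3m and Eif3i were also higher in CD VEH, at 0.24 (SE 0.069, adjusted p = 0.0227) and 0.22 (SE 0.069, adjusted p = 0.0356), and lower with JZL184 in CD mice, at -0.30 (SE 0.062, adjusted p = 0.00522) and -0.19 (SE 0.062, adjusted p = 0.0342). The genotype calls of all 4 were lost without either WT VEH mouse and without CD VEH mouse A or E, and were kept in 8 of 14 alternatives for Eif3e and Eif3i and in 9 of 14 for Eif3k and Eif3m. With the length offset the JZL184 value in CD mice went to -0.14 for Eif3m (adjusted p = 0.109) and to 0.001 for Eif3i, whose call was kept in 7 of 15 alternatives.

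Eif3h measured 103 and 107 CPM in WT VEH, 118, 128 and 114 in WT JZL184, 117, 108 and 115 in CD VEH, and 101, 98.1 and 100.5 in CD JZL184. It fell with JZL184 in CD mice (-0.18 (SE 0.061, adjusted p = 0.0382)), a call kept in 7 of 15 alternatives and lost with the length offset (-0.02, adjusted p = 0.74), and was not called between CD and WT mice on vehicle. Eif3j1, a loosely bound subunit, was lower in CD VEH (-0.31 (SE 0.071, adjusted p = 0.00942)), higher with JZL184 in CD mice (0.21 (SE 0.064, adjusted p = 0.0287)) and lower with JZL184 in WT mice (-0.23 (SE 0.071, adjusted p = 0.0302)), and these JZL184 calls were kept in 10 of 15 and 9 of 14 alternatives (with the length offset, 0.10 and -0.16). Eif3j2 is a near-identical copy, so reads may be split between them, and it fell with JZL184 in WT mice (-0.32 (SE 0.097, adjusted p = 0.0287)). Among the large core subunits, Eif3a measured 161 and 160 CPM in WT VEH, 162, 118 and 139.5 in WT JZL184, 129, 137 and 136 in CD VEH, and 156, 142 and 158 in CD JZL184, and Eif3c measured 89.2 and 91.6 CPM in WT VEH, 106, 81.5 and 88.95 in WT JZL184, 87.3, 94.5 and 90.2 in CD VEH, and 92.98, 93.8 and 96.3 in CD JZL184. WT JZL184 mouse B was the lowest for both, and neither was called between groups. Eif3b was higher in CD JZL184 than in WT JZL184 (0.19 (SE 0.052, adjusted p = 0.0149)), and Eif3d, Eif3f, Eif3g and Eif3l were not called between groups.

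The initiator tRNA carrier eIF2 and its exchange factor eIF2B had a single call among the comparisons of groups, in which 29.4% to 38.3% of all genes were called except for CD JZL184 against WT VEH. Eif2s1, the subunit phosphorylated in the stress response, measured 35.4 and 35.1 CPM in WT VEH, 39.95, 31.4 and 31.3 in WT JZL184, 36.7, 34.04 and 38.2 in CD VEH, and 34.5, 34.1 and 32.6 in CD JZL184. WT JZL184 mouse A was the highest, and the 95% interval of the log2 fold-change between CD and WT mice on vehicle was -0.17 to 0.26. Eif2s2 measured 74.9 and 72.2 CPM in WT VEH, 90.5, 71.7 and 74.7 in WT JZL184, 82.6, 77.3 and 84.8 in CD VEH, and 74.3, 68.2 and 68.8 in CD JZL184, and it was not called. The gamma subunit is encoded by the X-linked Eif2s3x and the Y-linked Eif2s3y, which are near-identical, so that reads may be shared. Eif2s3x measured 81.7 and 79.6 CPM in WT VEH, 83.6, 65.01 and 68.4 in WT JZL184, 72.1, 72.95 and 71.4 in CD VEH, and 81.9, 78.3 and 80.03 in CD JZL184, and Eif2s3y measured 50.8 and 50.9 CPM in WT VEH, 43.1, 40.9 and 43.5 in WT JZL184, 36.8, 47.99 and 43.9 in CD VEH, and 46.1, 44.5 and 43.8 in CD JZL184. WT JZL184 mouse A was the highest for Eif2s3x, and for Eif2s3y every other mouse lay below both WT VEH mice. Eif2s3y for JZL184 in WT mice passed the threshold (-0.26 (SE 0.090, adjusted p = 0.0493)), a call kept in 4 of 14 alternatives. None of the 5 subunits of eIF2B was called in any comparison. Its catalytic subunit Eif2b5 measured 39.03 and 41.4 CPM in WT VEH, 40.6, 35.1 and 36.8 in WT JZL184, 37.6, 37.4 and 39.2 in CD VEH, and 40.5, 38.8 and 40.3 in CD JZL184, with a 95% interval of -0.23 to 0.071 between CD and WT mice on vehicle.

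Among the scanning factors, Eif1, which guards start codon choice, measured 377 and 366 CPM in WT VEH, 369, 412 and 356 in WT JZL184, 428, 397 and 394 in CD VEH, and 364, 382 and 365 in CD JZL184, with the highest mean in CD VEH and no call. Eif1a fell with JZL184 in CD mice (-0.40 (SE 0.10, adjusted p = 0.0123)), and its close copy Eif1ax was not called. Eif5, the activator of GTP hydrolysis by eIF2, measured 136 and 133 CPM in WT VEH, 125, 112 and 117 in WT JZL184, 117, 115 and 121 in CD VEH, and 128, 123 and 114 in CD JZL184 and was not called. Eif5a, which relieves stalled ribosomes, measured 179 and 193 CPM in WT VEH, 175, 192 and 172 in WT JZL184, 188, 187 and 188 in CD VEH, and 190.2, 204 and 198 in CD JZL184 and was not called, with a 95% interval of -0.14 to 0.17 between CD and WT mice on vehicle. Eif5b, which joins the subunits, measured 95.7 and 93.7 CPM in WT VEH, 86.5, 70.1 and 75.2 in WT JZL184, 76.9, 83.5 and 77.3 in CD VEH, and 92.7, 87.6 and 91.05 in CD JZL184. It was lower in CD VEH, at -0.26 (SE 0.082, adjusted p = 0.0355), and lower with JZL184 in WT mice, at -0.29 (SE 0.082, adjusted p = 0.0217), calls kept in 7 and 8 of 14 alternatives and lost without either WT VEH mouse and with the length offset (-0.08 and -0.16). The genotype call was also lost without CD VEH mouse A or E, and the WT call without WT JZL184 mouse B or D.

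Eif6, which keeps the large subunit free until it is needed (chr2:155819832-155826925), measured 15.1 and 16.7 CPM in WT VEH, 18.7, 22.1 and 18.9 in WT JZL184, 21.4, 20.9 and 22.1 in CD VEH, and 17.5, 17.9 and 17.2 in CD JZL184. All mice of CD VEH and WT JZL184 lay above the WT VEH and CD JZL184 mice. The log2 fold-change was 0.44 (SE 0.082, adjusted p = 0.0047) between CD and WT mice on vehicle, -0.29 (SE 0.072, adjusted p = 0.0107) for JZL184 in CD mice and 0.32 (SE 0.082, adjusted p = 0.0141) in WT mice. Without WT VEH mouse C the calls against WT VEH were lost (adjusted p of 0.0631 for CD VEH and 0.134 for WT JZL184), and with the length offset the JZL184 call in CD mice was lost (-0.17, adjusted p = 0.0587).

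**Figure D3:**
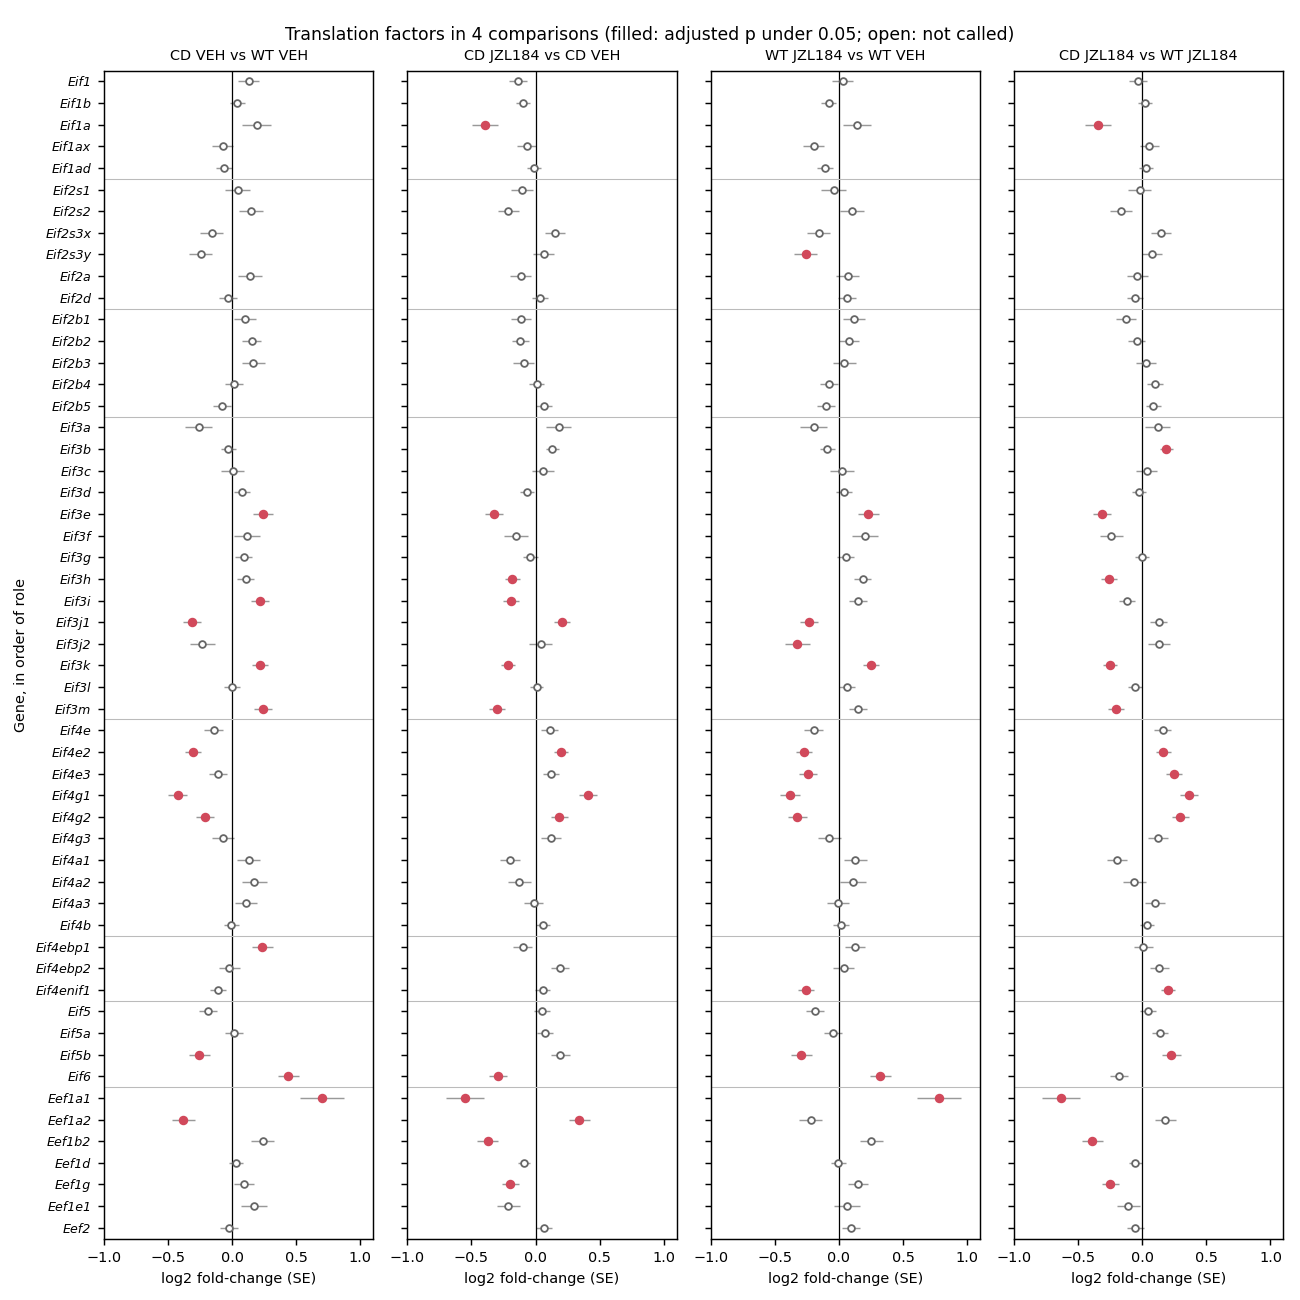
Log2 fold-change with SE for each of the 54 factors in 4 comparisons, in order of role (gray lines separate roles), with called factors filled. The largest values are those of Eef1a1 (0.70, -0.55, 0.78 and -0.64), and the eIF2B subunits have no filled point.

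No factor was called between CD JZL184 and WT VEH hearts. Between treated CD and vehicle WT mice 0 of 54 factors passed the threshold in edgeR's quasi-likelihood test or in DESeq2, beside 0.186% of all tested genes (0.0442% higher and 0.141% lower), and 0 had an unadjusted p under 0.05. The groups did not overlap for 25 factors, beside 36.6% of all tested genes. The largest differences were -0.20 for Eif1a and 0.17 for Eif4ebp2. Eef1a1 stood at 0.15, with a 95% interval of -0.22 to 0.52, and Eif4g1 at -0.017, with an interval of -0.19 to 0.15. These data do not exclude differences within these intervals.

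The difference of the JZL184 effect between CD and WT mice passed the threshold for 26 factors, 14 higher and 12 lower in CD mice. This is 48.1% of the factors, a share below the 51.5% of all tested genes, 25.3% higher and 26.2% lower. JZL184 gave calls in opposite directions in the 2 genotypes for 8 factors, beside 20.3% of all tested genes. Eif3e, Eif3k, Eif6 and Eef1a1 were lower with JZL184 in CD mice and higher in WT mice, and Eif3j1, Eif4e2, Eif4g1 and Eif4g2 were higher in CD mice and lower in WT mice. With the length offset Eef1a1, Eif4e2, Eif4g1 and Eif4g2 kept both calls. Eif3e lost that in WT mice, Eif6 that in CD mice, and Eif3k and Eif3j1 lost both. Eef1a1 had the most negative value, -1.33 (SE 0.23, adjusted p = 0.00075), followed by Eef1b2 at -0.63 and Eif6 at -0.62. Eif4g1 had the most positive value, 0.79 (SE 0.10, adjusted p = 0.000225), followed by Eef1a2 at 0.56 and Eif4g2 at 0.51.

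Shorter mRNAs lay on the higher side in CD VEH and WT JZL184. Over the 54 factors, Pearson's r of the log2 fold-change with log2 principal transcript length was -0.481 between CD and WT mice on vehicle, 0.472 for JZL184 in CD mice and -0.408 for JZL184 in WT mice. Over 11240 genes the same r was -0.383, 0.443 and -0.313, and all points come from the same 11 libraries, so these are descriptions. Below 2000 bases, 7 factors were higher and 2 lower between CD and WT mice on vehicle, and from 2000 bases on, 0 were higher and 4 lower. As shares, 30.4% and 8.7% of the shorter factors were called higher and lower, beside 29.2% and 3.24% of all genes of that length, and 0% and 12.9% of the longer ones, beside 10.2% and 19.6%. With an offset for length, which lowered the share of all genes called to 23.3%, 2 factors stayed higher (Eef1a1 and Eif6), and 6 were lower (Eif4g1, Eif4g2, Eif4e2, Eif3j1, Eef1a2 and Eif2s3y). The part of length in these results was not tested further.

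**Figure D4:**
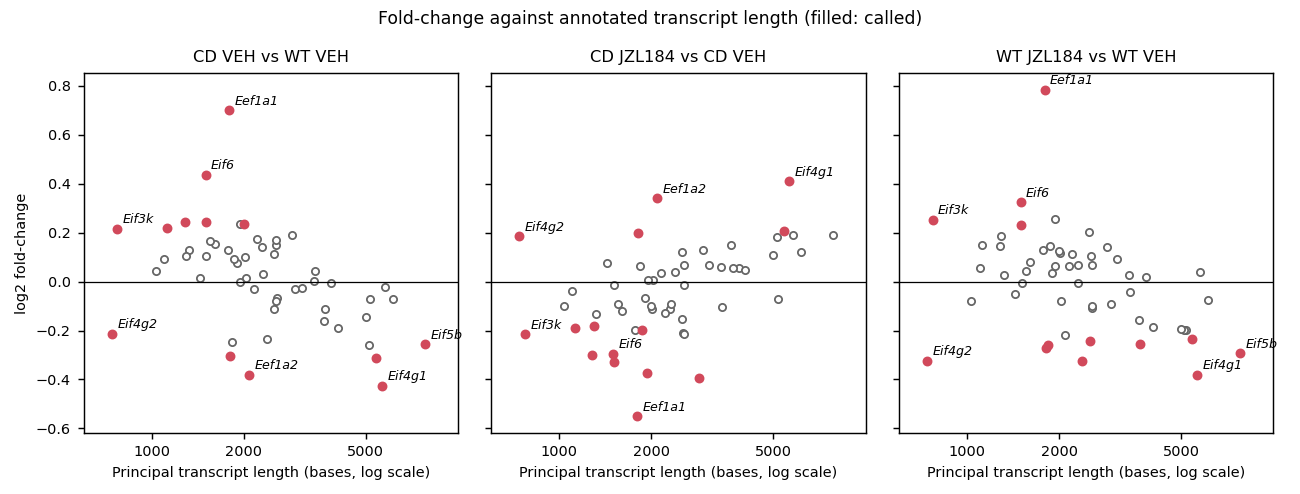
Log2 fold-change against annotated principal transcript length (log axis, bases) for the 54 factors in 3 comparisons, called factors filled. Long transcripts such as Eif4g1 and Eif5b lie below 0 in the left and right panels, and short ones such as Eif3k above 0, whereas Eif4g2 stands apart because its annotated principal transcript has 742 bases.

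The transcripts of ribosomal proteins, which share control with several elongation factors in many cells, moved together. Of 77 genes, 73 were higher and 0 lower between CD and WT mice on vehicle (94.8% called, beside 30.4% of all tested genes). The median log2 fold-change was 0.456. With JZL184 in CD mice 0 were higher and 76 lower (98.7% beside 33.9%), with a median of -0.507. With JZL184 in WT mice 73 were higher and 0 lower (94.8% beside 29.4%), with a median of 0.45. Their summed level was 12650 and 12740 CPM in WT VEH, 16050 to 18920 CPM in WT JZL184, 15360 to 18830 CPM in CD VEH and 12190 to 12480 CPM in CD JZL184, whereas the translation factors' sum in CPM was nearly level. Many such mRNAs begin with a C followed by a run of pyrimidines. At the start annotated by RefSeq (GRCm38.p6), a C followed by 4 bases that are each C or T was found in 2 of the 43 factors that have a window (4.65%), in 13 of 57 ribosomal protein genes (22.8%) and in 3.01% of all 27025 genes. Within 10 bases of the start it was found in 32.6% of the factors, 59.6% of the ribosomal protein genes and 34.4% of all genes. The windows below run 15 bases to either side of the annotated start, 5′ to 3′ on the gene's strand, with matches in capitals, and are shown for the 2 factors with a match at the start and for 4 of the called factors, chosen after their values were seen.
Eif3f (chr7:108934400-108934429, plus strand): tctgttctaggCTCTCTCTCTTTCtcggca
Eif2s3x (chrX:94212637-94212666, minus strand): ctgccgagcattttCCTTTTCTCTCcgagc
Eef1a1 (chr9:78481710-78481739, minus strand): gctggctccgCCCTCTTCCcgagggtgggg
Eef1a2 (chr2:181157001-181157030, minus strand): tCTCTCCTggtctgcgttctcgctcactgg
Eif4g1 (chr16:20672712-20672741, plus strand): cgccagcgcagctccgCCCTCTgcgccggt
Eif3k (chr7:28981874-28981903, minus strand): aaaacaaccggcgctggtgctgaaagcgcc
The matches of Eef1a2 lie more than 10 bases before the start, and Eif3k holds no match in its window. Of the 7 factors called higher in CD VEH, the 3 that have a window do not hold it exactly at the start. Within 10 bases of the start, 1 of these 3 holds it (33.3%, beside 34.4% of all genes). This is Eef1a1, whose nearest match begins at the base just before the annotated start. Of the 6 factors called lower in CD VEH, 5 have a window. None of these holds it exactly at the start, and 2 (40%) hold it within 10 bases.

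Regulators of these factors, from a list of 37 genes of which 35 were tested, also went in both directions. Between CD and WT mice on vehicle 3 were higher and 6 lower, and with JZL184 in CD mice 4 were higher and 5 lower, in each case 25.7% of the list and thus below the shares of all genes, 30.4% and 33.9%. Those higher on vehicle were Pabpc1 at 0.37, Ppp1r15b at 0.26 and Dohh at 0.225 on the log2 scale. Larp1, which binds pyrimidine-starting mRNAs, had a log2 fold-change of -0.47 (SE 0.08, adjusted p = 0.00359) between CD and WT mice on vehicle and 0.46 (SE 0.072, adjusted p = 0.00235) with JZL184 in CD mice. Mtor, the kinase that releases eIF4E from its repressors, had -0.34 (adjusted p = 0.0251) and 0.40 (adjusted p = 0.0072), and its partner Rptor -0.31 (adjusted p = 0.013) and 0.36 (adjusted p = 0.0038). Eef2k, the kinase of eEF2, did not pass, at -0.29 (adjusted p = 0.066) and 0.28 (adjusted p = 0.0523). The listed genes Mlst8, Akt1s1 and Rps6kb1 were called in neither comparison. With JZL184 in WT mice the values were -0.42 for Larp1 (adjusted p = 0.00488), -0.31 for Mtor (adjusted p = 0.0363), -0.34 for Rptor (adjusted p = 0.00925) and -0.27 for Eef2k (adjusted p = 0.093). The stress factor Atf4 fell with JZL184 in CD mice, by 0.25 on the log2 scale (adjusted p = 0.0184).

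The summed markers of other cell types differed between the groups. Summed endothelial markers (6 of 6 tested) were 576 to 588 CPM in WT VEH, 828 to 889 CPM in WT JZL184, 693 to 771 CPM in CD VEH and 547 to 620 CPM in CD JZL184. Smooth muscle and pericyte markers (6 of 6) were 587 to 595, 844 to 908, 802 to 922 and 572 to 586 CPM in the same order, fibroblast markers (6 of 6) 676 to 691, 801 to 996, 789 to 901 and 620 to 723 CPM, and macrophage markers (6 of 6) 229 to 240, 299 to 506, 294 to 384 and 202 to 233 CPM. Cardiomyocyte markers (6 of 6) were 30380 to 31040, 20730 to 28350, 25060 to 28010 and 29490 to 31500 CPM. The sums of the endothelial, smooth muscle, fibroblast and macrophage markers were thus higher, and that of the cardiomyocyte markers lower, in CD VEH and WT JZL184, the groups in which Eef1a1 was higher. Single markers did not all follow their sums. In WT VEH, Rgs5 (456 and 444 CPM), Dcn (392 and 365 CPM) and Lyz2 (129 and 139 CPM) held most of their sums. Between CD and WT mice on vehicle 3 of 6 endothelial, 4 of 6 smooth muscle and pericyte, 2 of 6 fibroblast and 4 of 6 macrophage markers were called higher. This stands beside 15% of all tested genes. Lower were 2 of 6 cardiomyocyte markers, beside 15.4% of all genes, Actn2 at -0.47 and Myh6 at -0.44. Tnni3 stood at 0.24, Tnnt2 at -0.10, Pln at -0.04, Acta2 at -0.15 and Col1a1 and Col1a2 at 0.00 and -0.01 on the log2 scale, none of them called. With JZL184 in CD mice 4 endothelial, 3 smooth muscle and pericyte, 2 fibroblast and all 6 macrophage markers were called lower and 3 cardiomyocyte markers higher. Of all genes, 17% were lower and 16.8% higher there. With JZL184 in WT mice 5, 5, 3 and 6 were called higher and 3 cardiomyocyte markers lower, beside 15.4% and 14% of all genes. The part of these markers in the results was not tested.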

How the data were processed

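Total RNA of mouse hearts was sequenced by the authors on a HiSeq3000, and the deposited table holds estimated counts per gene, made by the authors with Salmon 0.7.2 on an Ensembl annotation of GRCm38 and summed to genes with tximport, without normalization. Groups came from the sample titles. Columns carry a group and a letter, so a column could be tied to its group but not to a sample number, and 0 columns lacked a group.

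Counts were rounded to whole numbers. The main test was the quasi-likelihood test of edgeR 4.0.16 (with limma 3.58.1, R 4.3.3), not robust, on a single model of the 4 groups scaled with TMM. It covered genes whose log2 CPM averaged 1 or more, and p-values were adjusted over all of them with the Benjamini-Hochberg method at 0.05. Symbols, positions and the principal transcript length came from GENCODE mouse release 21, which matched 22238 of 22608 genes. Key members (fixed by role) are given in every mouse. Of the other members called, fold-changes are given for some of the comparisons. Intervals are 95% intervals of the fitted log2 fold-change. Members and lists were chosen with earlier results of these data known.

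The alternatives were DESeq2 1.42.0, RLE and upper-quartile factors, models of the compared groups alone, no filter or a minimum of 10 counts per mouse, offsets for length and GC content (loess, span 0.5), no mitochondrial genome genes, a threshold of 0.01, leaving out each mouse and, added after the data were seen, the column letter as a block. The steps were tested on simulated data. Start windows and their sequences are from RefSeq.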

Additional observations from a re-analysis of the deposited data

Results flagged for a closer look

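The effect of JZL184 differed between CD and WT mice for 26 of 54 factors in the test of the difference itself (edgeR's quasi-likelihood test), with 14 higher and 12 lower in CD mice, which is 48.1% of the factors beside 51.5% of all tested genes. The values below are the JZL184 log2 fold-change in CD mice minus that in WT mice.

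Of the scanning and tRNA carrier factors, the difference was -0.54 for Eif1a, 0.31 for Eif2s3x and 0.32 for Eif2s3y. In eIF3 it was positive for Eif3a (0.38), Eif3b (0.22), Eif3j1 (0.44) and Eif3j2 (0.36), and negative for Eif3e (-0.56), Eif3f (-0.36), Eif3h (-0.37), Eif3i (-0.34), Eif3k (-0.47) and Eif3m (-0.45). In the cap-binding group it was 0.30 for Eif4e, 0.47 for Eif4e2, 0.36 for Eif4e3, 0.79 for Eif4g1, 0.51 for Eif4g2, -0.33 for Eif4a1 and 0.31 for Eif4enif1. For subunit joining it was 0.48 for Eif5b and -0.62 for Eif6. For elongation it was -1.33 for Eef1a1, 0.56 for Eef1a2, -0.63 for Eef1b2 and -0.34 for Eef1g. Several of these calls depended on the settings: among 19 alternatives, that of Eif2s3x was kept in 6, those of Eif2s3y and Eif3f in 7, and those of Eif3a and Eif4a1 in 8. The offset for transcript length turned Eif3k to 0.017, moved Eif4g2 to 1.01 and ended the calls of Eif2s3x (0.24), Eif3a (0.22), Eif3f (-0.32), Eif3h (-0.09), Eif3i (-0.004), Eif3m (-0.17), Eif4e (0.15), Eif4a1 (-0.17), Eif5b (0.18) and Eef1g (-0.20).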

How the results depend on the processing

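The columns carry letters and not the replicate numbers of the labels, and no source says what a letter marks. Of the 8 pairs of mice that share a letter, WT JZL184 mouse A and CD JZL184 mouse A deviated together from their group means (correlation over genes 0.315), and the others had correlations of -0.253 to 0.036. With the letter as a block, a fit added after the data were seen, factors called higher numbered 2 in CD VEH against WT VEH, 0 for JZL184 in WT mice, 1 in CD JZL184 against WT JZL184 and 9 for the difference of the JZL184 effects, and those called lower 1 for JZL184 in WT mice and 2 in CD JZL184 against WT JZL184, while this fit called 21.2%, 5.29%, 10.5% and 40.2% of all genes in these comparisons. Numbers of alternatives that kept a call leave this fit out. The medians kept their values within the spread between mice under every alternative tried. The counts below stand with the share of all genes called in the same fit, higher and lower together. In CD VEH against WT VEH, the count of higher factors was 4 without a filter (16.8%), 2 with the length offset (23.3%) and 1 at 0.01 (10.2%), and that of lower factors 10 with only the compared groups (35%) and 3 at 0.01. For JZL184 in CD mice, higher factors numbered 8 with DESeq2 (37.5%), 8 with only the compared groups (41.4%) and 1 at 0.01 (13.7%), and lower factors 4 with the length offset (25.6%) and 3 at 0.01. For JZL184 in WT mice, higher factors numbered 2 with the length offset (26.6%), 7 with the GC offset (32.4%), 1 with only the compared groups (14.6%) and 1 at 0.01 (9.78%), and lower factors 1 with only the compared groups and 3 at 0.01. In CD JZL184 against WT JZL184, 3 were higher and 5 lower at 0.01 (19.7%). For the difference of the JZL184 effects, 8 were higher with upper-quartile factors (51.5%) and 8 at 0.01 (34.4%), and 5 were lower with the length offset (46.2%). The cause was not tested.

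Leaving out each mouse gave 0 to 9 higher and 1 to 7 lower factors in CD VEH against WT VEH (median -0.002 to 0.046, and 3.41% to 31.3% of all genes called), 2 to 8 and 4 to 12 for JZL184 in CD mice (-0.044 to -0.010, 18% to 34.5%), 0 to 7 and 1 to 13 for JZL184 in WT mice (-0.004 to 0.037, 4.93% to 39.5%), 3 to 12 and 6 to 9 in CD JZL184 against WT JZL184 (-0.001 to 0.042, 26.1% to 43%), 0 and 0 in CD JZL184 against WT VEH (-0.037 to -0.017, 0.106% to 0.168%), and 8 to 16 and 9 to 13 for the difference of the JZL184 effects (-0.053 to -0.011, 40.5% to 56.6%). Without a WT VEH mouse, the remaining WT VEH mouse is assumed to vary like the other groups.

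With the length offset, Eif3k reversed to -0.036 in CD VEH against WT VEH, to 0.061 for JZL184 in CD mice and to 0.017 for the difference of the effects, and Eif3i to 0.001 for JZL184 in CD mice. Uncalled values near 0 changed sign too (over the fits without a mouse, Eef2 lay between -0.057 and 0.004 and Eif4g1 between -0.048 and 0.015), Eef2 in CD VEH against WT VEH to 0.017 with upper-quartile factors, 0.004 without WT VEH mouse D and 0.002 without CD VEH mouse E, and Eif4g1 in CD JZL184 against WT VEH to 0.015 without WT VEH mouse D and 0.005 without CD JZL184 mouse C.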

Other observations

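The factors of mitochondrial translation, which serve the separate ribosomes of that organelle, formed a list of 10 genes. In CD VEH against WT VEH 0 were higher and 3 lower (30% beside 30.4% of all tested genes), with JZL184 in CD mice 1 was higher and 0 lower (10% beside 33.9%), and with JZL184 in WT mice 0 were higher and 3 lower (30% beside 29.4%). For the difference of the JZL184 effects between CD and WT mice 6 were higher and 0 lower (60% beside 51.5%). Gfm2, which helps to recycle mitochondrial ribosomes, had log2 fold-changes of -0.45 (adjusted p = 0.00344), 0.34 (adjusted p = 0.00444) and -0.41 (adjusted p = 0.00422) in these comparisons. Their summed level was 532 and 549 CPM in WT VEH, 421.5 to 509 CPM in WT JZL184, 431 to 478 CPM in CD VEH and 507 to 517 CPM in CD JZL184. Tufm, the mitochondrial counterpart of eEF1A, did not pass the threshold in CD VEH against WT VEH, at -0.22 (adjusted p = 0.0519).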
